A study of Mus musculus with 12 samples.

Results

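The 9 genes described here encode the enzymes Mat1a, Mat2a, Gnmt, Bhmt, Ahcy, Cbs, Cth, Shmt1 and Nnmt, which carry methionine and its methyl groups through the liver. They were taken by symbol from a table of 24537 genes, by a rule that sets no threshold on their values, and all 9 were among the 10593 genes tested. Hepatic mRNA was sequenced from 12 male C57Bl/6J mice that were 6 weeks old when purchased and were not genetically altered. Control (Con) mice ate the NIH41 diet ad libitum, and mice under calorie restriction (CR) received 30% fewer calories as a fortified NIH41 diet, given once a day at midday. Each diet was sampled at day 25 and day 30, with 3 different mice per diet and day, all housed singly and given heavy water for the last days. The composition of the diet and the timing of the meal therefore cannot be told apart from CR, and the clock time of tissue collection was not given in the sources used here.

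Methionine adenosyltransferases join methionine and ATP into S-adenosylmethionine, the methyl donor of most methylation reactions in the cell. Each methyl transfer leaves S-adenosylhomocysteine, which is split to homocysteine. Homocysteine is then either methylated back to methionine, with betaine or a folate as the donor, or drained through the transsulfuration pathway to cysteine and glutathione, and hepatocytes are the main site of these steps in the body.

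The 9 mRNAs spanned a wide range of levels. FPKM, the deposited unit, counts fragments on the exons of a gene scaled by the length of these exons and by the fragments of the library, so levels of different genes can be compared per length. Mat1a and Gnmt were the most abundant in all 4 groups, with mean FPKM between 1066 and 1858 for Mat1a and between 1370.2 and 1736 for Gnmt, and the mice of the 2 genes overlapped in each group. Together they made up 71.2% to 80.6% of the summed FPKM of the 9 genes. In Con mice at day 25, Bhmt (353 ± 116, mean FPKM ± SD, n = 3) and Cth (251 ± 47.4) followed with overlapping mice, then Cbs (141 ± 4.66), Ahcy (122 ± 23.4) and Nnmt (112 ± 22.3), where neighbours also overlapped. Shmt1 (77.8 ± 7.87) lay below these, and Mat2a (18.7 ± 0.907) was the lowest in every group, with no mouse overlapping Shmt1. In CR mice at day 25, Cbs stood lower in the order, at 79.5 ± 6.36, beside Shmt1 at 79.1 ± 6.11, with overlapping mice.

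The libraries held 15748718 to 23345562 reads according to the step that 1 read makes in low FPKM values, and 78.1% to 84.3% of them lay on exons. The least covered value among the 9 genes, of Mat2a, rested on 739 reads, for which counting error alone is 3.68%. The liver label was checked on Alb, Ttr, Apoa1, Apob, Cps1 and Hnf4a, hepatocyte genes whose summed FPKM was 36276 to 62570.4, against 0.582 to 2.17 for 6 lymphocyte genes. A Con mouse of day 30, Con11 in the table, stood apart for these enzymes. It had the lowest FPKM of its group for 8 of the 9 genes and the highest for Mat2a, and the 9 genes took 0.567% of all its FPKM, against 0.784% to 1.30% in the other 11 mice. Its mean correlation with the rest of its group was 0.985, against 0.986 to 0.988 in the other libraries. Results that rest on this mouse are therefore given with and without it.

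**Figure D1:**
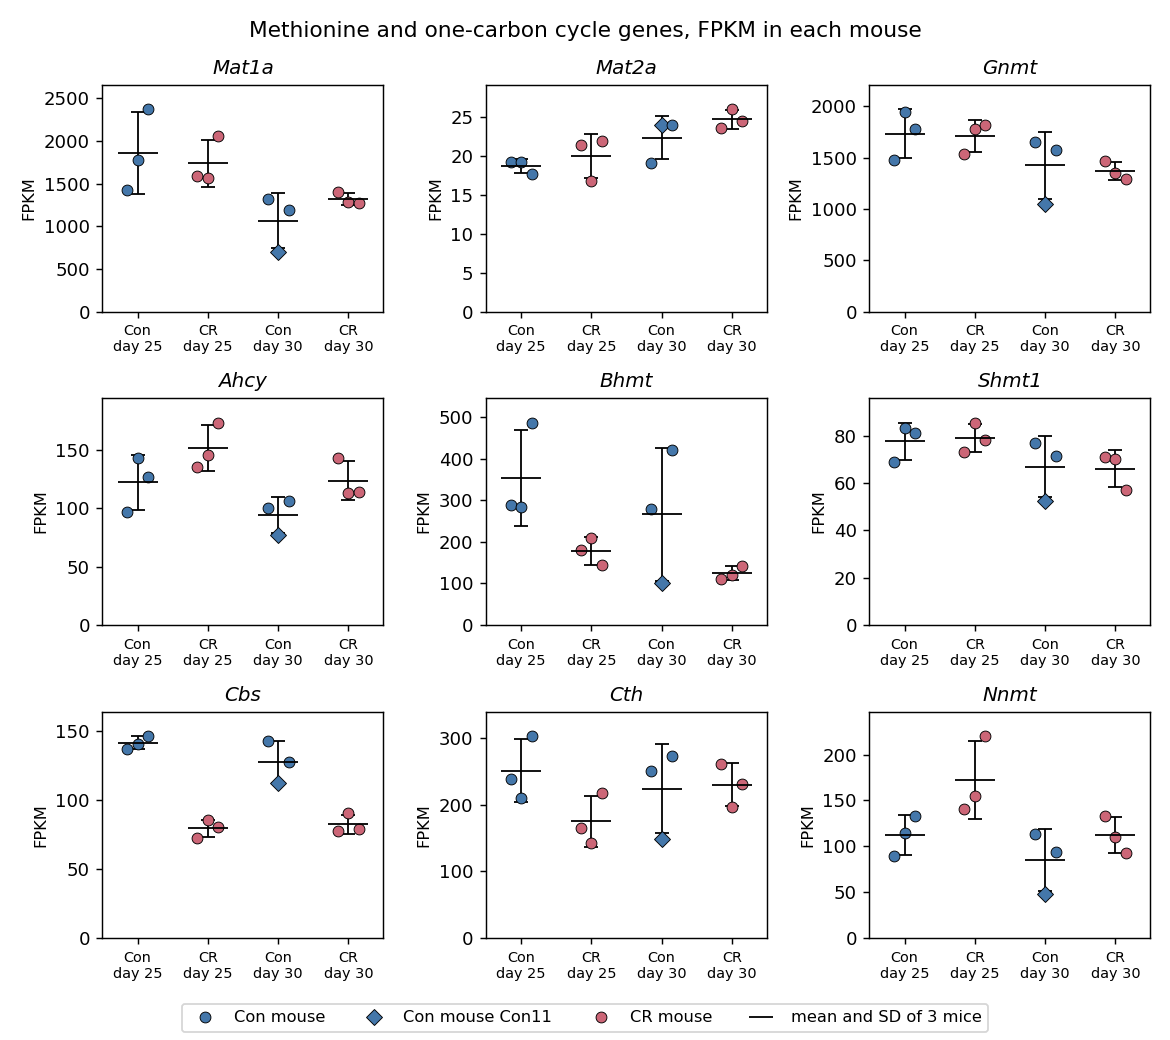
FPKM of the 9 genes (vertical axes, linear and from 0, each panel with its own scale) in each of the 12 mice, by diet and day (horizontal axes). Blue marks Con and red marks CR mice, black lines give the mean and SD of 3 mice, and the diamond is Con11. The Cbs points of CR mice lie between 72.6 and 90.5, all below the Con mice at 113 to 146.

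The first question was which of these genes differed between CR and Con. Cbs, the entry enzyme of transsulfuration, was lower in CR mice at both days, and Bhmt, which remethylates homocysteine with betaine, was lower over both days together. Ahcy, which splits S-adenosylhomocysteine, and Nnmt, which methylates nicotinamide, were higher over both days together. In the limma model, 1 of the 9 genes passed a Benjamini-Hochberg adjusted p of 0.1 at day 25, where 14.9% of all tested genes passed (5.6% higher and 9.34% lower). At day 30, 1 of 9 passed, against 24.7% of all genes (8.33% higher and 16.4% lower). With both days fitted together and day as a covariate, 4 of 9 passed, 2 higher and 2 lower, against 40.6% of all genes, with 14.5% higher and 26.1% lower. These shares are near the background. Without Con11, 4 of 9 genes passed at day 25 (14.8% of all genes in that fit), 2 at day 30 (17.7%) and 5 over both days (36%). Con11 was singled out by its values for these same genes, so the counts and adjusted p-values without it, here and below, are no independent support. As a mouse of day 30, Con11 does not enter the estimates of day 25. The added calls of day 25 come from the spread shared by the groups, not from the estimates. The median size of the log2 fold change of the 9 genes in all 12 mice was 0.32 at day 25 against 0.16 over all genes, and 0.36 at day 30 against 0.19. All tested genes include those with an FPKM near 1, where the 1 added before taking logs makes changes smaller. These medians are therefore not like for like. With all 12 mice, none passed with a log2 fold change of at least 1 in size, where 1.48% of all genes did at day 25, 2.21% at day 30 and 1.66% over both days. Without Con11, Bhmt did so at day 30 (-1.46) and over both days (-1.18). At an unadjusted p under 0.05, 3 of 9 passed at day 25 (24.9% of all genes), 3 at day 30 (31.7%) and 4 over both days (42.9%). Because these are bulk samples, fewer cells of a type and less RNA per cell cannot be told apart.

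**Figure D2:**
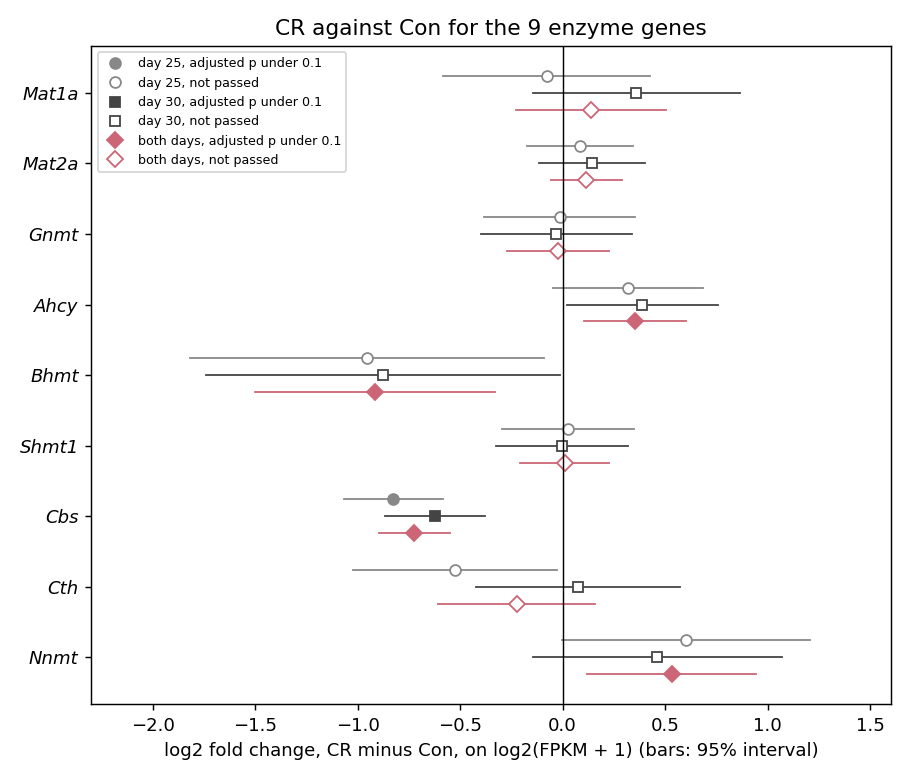
Log2 fold change of CR against Con on log2(FPKM + 1) (horizontal axis) for each gene (vertical axis) at day 25, at day 30 and over both days, with 95% intervals of the limma model as bars. Filled symbols passed an adjusted p of 0.1. Cbs is filled at both days, and Bhmt, Ahcy and Nnmt only where both days are fitted together.

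Cbs encodes cystathionine beta-synthase, which condenses homocysteine and serine to cystathionine with vitamin B6 as cofactor and commits homocysteine to breakdown. At day 25, its FPKM was 137, 141 and 146 in Con mice and 72.6, 85.2 and 80.7 in CR mice. The values of day 30 were 143, 113 and 127 in Con mice and 77.7, 90.5 and 78.8 in CR mice. The 6 CR mice all lay below the 6 Con mice, a separation that 12.5% of tested genes showed, 8.7% with CR lower and 3.82% with CR higher. The log2 fold change was -0.83 (SE 0.11, adjusted p = 0.00148) at day 25 and -0.62 (SE 0.11, adjusted p = 0.00344) at day 30, and -0.72 (SE 0.080, adjusted p = 4.9e-05) over both days. On the linear scale, the mean of the CR mice was 39.8% below that of the Con mice. The spread between Con mice at day 25 was 3.30% of the mean, the smallest of the 9 genes in that group. The change in the CR effect from day 25 to day 30 was 0.20 (95% interval -0.14 to 0.55) and did not pass. Cbs passed at each day and over both days with each mouse left out in turn and under each other model, filter and scaling tried, with values between -0.89 and -0.54, and it did not pass when a 2-fold change was also required.

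The gene lies on the minus strand of chromosome 17 (mm10, 31612623 to 31637205) with 16 exons. The stretch before its start is printed because Cbs was the only member that passed at each day, and the one before Ahcy because Ahcy passed in the opposite direction over both days and its window holds no annotated exon. Both are RefSeq sequences of GRCm38.p6, written 5′ to 3′ on the minus strand. They cover chr17:31637239-31637455 for Cbs, from 250 to 34 bases before the RefSeq start, and chr2:155074498-155074747 for Ahcy, the 250 bases before the start. Capitals mark matches to the motifs searched, on this strand or as the reverse complement, and no matches overlap here. The CCAAT box was searched as the letters of its name. The GC box was searched as the letters GGGCGG. The E-box was searched as CACGTG, which reads alike on both strands. A nuclear receptor half-site was searched as AGGTCA, and the TATA box was searched as the word TATAAA.
Cbs: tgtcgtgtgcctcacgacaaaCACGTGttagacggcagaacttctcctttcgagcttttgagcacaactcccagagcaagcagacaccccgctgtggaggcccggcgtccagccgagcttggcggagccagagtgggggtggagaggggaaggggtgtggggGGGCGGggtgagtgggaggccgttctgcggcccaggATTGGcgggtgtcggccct
Ahcy: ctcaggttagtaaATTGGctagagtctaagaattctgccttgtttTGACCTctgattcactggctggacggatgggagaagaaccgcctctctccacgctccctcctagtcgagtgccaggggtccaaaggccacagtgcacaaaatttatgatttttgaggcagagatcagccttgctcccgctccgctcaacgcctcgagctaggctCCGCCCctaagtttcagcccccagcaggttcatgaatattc
The Cbs stretch held an E-box, a GC box and a CCAAT box once each. It leaves out the 33 bases next to the start, which lie in an annotated exon of Cbs. Those bases hold a further GC box (-33 to -28) and a further CCAAT box (-15 to -11). Of 32851 RefSeq promoters cut to the same window, 4.92% held the E-box, 28.0% the GC box and 30.6% the CCAAT box. The Ahcy stretch held a CCAAT box, a GC box and a receptor half-site once each, letters found in 33.8%, 32.7% and 14.0% of promoters in its window. The TATA box was in neither stretch, against 9.84% and 12.4% of promoters in the windows of Cbs and Ahcy. These are matches of letters only.

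Bhmt encodes betaine-homocysteine methyltransferase, a liver enzyme that moves a methyl group from betaine to homocysteine. Con mice at day 25 had an FPKM of 288, 284 and 487, and CR mice had 181, 208 and 144. At day 30, the FPKM was 278, 101 and 421 in Con mice and 110.0, 121 and 142 in CR mice. At day 25, all CR mice lay below the Con mice, as they did for Cbs, while Nnmt had all CR mice above. These 3 of 9 genes compare with 28.2% of all genes without overlap at day 25, 18% with CR lower and 10.2% with CR higher. At day 30, Con11 lay below all 3 CR mice, and the other 2 Con mice lay above them. The log2 fold change was -0.96 (SE 0.40, adjusted p = 0.158) at day 25 and -0.88 (SE 0.40, adjusted p = 0.153) at day 30. Over both days it was -0.92 (SE 0.27, adjusted p = 0.0221), and the mean FPKM of the 6 CR mice was 0.488 of that of the 6 Con mice.

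Con mice differed more among themselves in Bhmt than in any other of these genes at day 30, with an SD of 60.1% of the mean against 13.2% in CR mice. Without Con11, the log2 fold change was -1.46 (adjusted p = 0.00551) at day 30 and -1.18 (adjusted p = 0.00061) over both days, and Bhmt passed at day 25 too, at an unchanged -0.96 (adjusted p = 0.0252). Con11 was singled out by low values that include Bhmt, so leaving it out had to lower the day 30 estimate. These calls are no independent support. Without Con12, the highest Con mouse at day 30, the value at that day was -0.44 (adjusted p = 0.468), and that at day 25 passed with an adjusted p of 0.0932. Without Con9, the value at day 25 was -0.70 (adjusted p = 0.390). Over both days, Bhmt passed with each mouse left out, between -1.18 and -0.72.

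Bhmt2, a neighbouring gene whose enzyme uses S-methylmethionine in place of betaine, was measured alongside. Bhmt lies at 93616891 to 93637758 on the minus strand of chromosome 13 (mm10, 8 exons), and Bhmt2 lies 18338 bases away on the same strand. FPKM of Bhmt2 was 102, 98.2 and 124 in Con mice and 98.8, 109 and 92.3 in CR mice at day 25. It was 92.4, 73.0 and 116 in Con mice and 106, 107 and 108 in CR mice at day 30. The groups overlapped at both days, and the log2 fold change over both days was 0.056 (SE 0.11, adjusted p = 0.729). A difference between the CR effects on Bhmt and Bhmt2 was not tested. The Bhmt transcript shares 99.4% of 1869 aligned bases with Gm5096 and 98.9% of 1224 with the pseudogene Bhmt-ps1, and it overlaps Gm15622 on the opposite strand, so reads could have been split among them or shared.

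Ahcy encodes adenosylhomocysteinase, which splits S-adenosylhomocysteine into homocysteine and adenosine and so removes the product that inhibits methyltransferases. The FPKM at day 25 was 97.0, 143 and 127 in Con mice and 136, 146 and 174 in CR mice, with overlap. The FPKM at day 30 was 100.2, 77.3 and 106 in Con mice and 143, 114 and 114 in CR mice. All CR mice lay above the Con mice at day 30. Ahcy and Cbs were the 2 of 9 genes without overlap at that day, against 36.4% of all genes, 12.1% with CR higher and 24.3% with CR lower. The log2 fold change was 0.32 (SE 0.17, adjusted p = 0.267) at day 25 and 0.39 (SE 0.17, adjusted p = 0.136) at day 30. Over both days it was 0.35 (SE 0.12, adjusted p = 0.0327), and it passed with each mouse left out, between 0.29 and 0.41. Without Con11, the value of day 30 was 0.25 (adjusted p = 0.382), and without CR10 it was 0.28 (adjusted p = 0.384). It passed without Con7, a mouse of day 25 that enters only through the spread shared by the groups (adjusted p = 0.0951), and after median-ratio scaling between libraries (adjusted p = 0.0764). Ahcy lies on the minus strand of chromosome 2 (mm10, 155059312 to 155074497, 10 exons). Its transcript shares 99.7% of 2083 aligned bases with Gm4737, whose FPKM in the table was at most 0.835, and 99.2% of 1299 with the pseudogene Gm9826. The antisense gene Gm45609 overlaps it. Its relatives Ahcyl1 and Ahcyl2 did not pass, with log2 fold changes of -0.13 (adjusted p = 0.139) and -0.17 (adjusted p = 0.163) over both days.

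Nnmt encodes nicotinamide N-methyltransferase, which spends S-adenosylmethionine to methylate nicotinamide. At day 25, its FPKM was 89.1, 114 and 134 in Con mice and 141, 154 and 220.4 in CR mice. At day 30, it was 114, 48.5 and 93.4 in Con mice and 133, 110.4 and 93.2 in CR mice. The groups were apart at day 25 and overlapped at day 30, where Con10 lay above 2 of the CR mice. The log2 fold change was 0.60 (SE 0.28, adjusted p = 0.204) at day 25, 0.46 (SE 0.28, adjusted p = 0.276) at day 30 and 0.53 (SE 0.19, adjusted p = 0.0494) over both days. Without Con11, the value at day 30 was 0.10 (adjusted p = 0.799) and that over both days 0.38 (adjusted p = 0.0936). Over both days, Nnmt passed in 9 of 12 fits with a mouse left out and did not pass without Con7 (adjusted p = 0.106), CR9 (adjusted p = 0.109) or CR10 (adjusted p = 0.103). Nnmt has 3 exons on the minus strand of chromosome 9 (mm10, 48591877 to 48605123).

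Cth encodes cystathionine gamma-lyase, the step after Cbs, which releases cysteine and is also a source of hydrogen sulfide. At day 25, its FPKM was 239, 211 and 303 in Con mice and 165, 143 and 217 in CR mice. The day 30 values were 251, 148 and 273 in Con mice and 261, 197 and 231 in CR mice. The groups overlapped at both days, by 1 CR mouse above 1 Con mouse at day 25. The log2 fold change was -0.52 (SE 0.23, adjusted p = 0.179) at day 25 and 0.075 (SE 0.23, adjusted p = 0.851) at day 30. The difference of these values was 0.60 (95% interval -0.11 to 1.31) and did not pass, and over both days the value was -0.22 (95% interval -0.61 to 0.16, adjusted p = 0.354). Without Con11, it was -0.20 at day 30 and -0.38 over both days, where it then passed (adjusted p = 0.0543). That fit also had Cth pass at day 25 (adjusted p = 0.0886), and Nnmt as well (adjusted p = 0.0831). Cth lies on the minus strand of chromosome 3 (mm10, 157894248 to 157925063, 12 exons).

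At day 25, Con and CR mice with the same number in their labels deviated together from their group means, with correlations over all tested genes of 0.106 to 0.368 in the 3 pairs. Mice with different numbers had -0.287 to 0.0134, but subtracting group means makes either kind negative on average where the other is positive. No label states that these mice are pairs. The pairing was taken from these same data, so calls under it are no independent support. The replicate block also joins the mice of day 30 by number. With this block in the model, 3 of the 9 genes passed at day 25, where 20.3% of all genes passed in that fit. They were Cbs (adjusted p = 0.00597), Cth at -0.52 (adjusted p = 0.0302) and Nnmt at 0.60 (adjusted p = 0.0863), and Bhmt did not pass (adjusted p = 0.117). For Cth, each CR mouse of day 25 lay below the Con mouse with its number.

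Mat1a and Mat2a encode the catalytic subunits of methionine adenosyltransferase. Mat1a is the form of mature hepatocytes, and Mat2a is the form of most other tissues and of fetal or dividing liver cells. Mat1a had an FPKM of 1427, 1775 and 2371 in Con mice and 1586, 1564 and 2058 in CR mice at day 25. At day 30, it had 1313, 696 and 1188 in Con mice and 1406, 1279.7 and 1275 in CR mice. The diets overlapped at both days, and the log2 fold change over both days was 0.14 (95% interval -0.23 to 0.51, adjusted p = 0.555). At day 30 it was 0.36 (adjusted p = 0.310) with all mice and 0.078 without Con11.

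Mat2a had an FPKM of 19.2, 19.3 and 17.7 in Con mice and 21.5, 16.8 and 21.9 in CR mice at day 25. At day 30, the values were 19.1, 24.1 and 24.0 in Con mice and 23.7, 26.0 and 24.5 in CR mice. The diets overlapped at both days, with a log2 fold change over both days of 0.12 (95% interval -0.058 to 0.29, adjusted p = 0.291), which passed without CR8 (adjusted p = 0.0926) and after median-ratio scaling (adjusted p = 0.0983). Their ratio does not depend on scaling between libraries. The FPKM of Mat1a was 28.9 to 134 times that of Mat2a, the lowest in Con11 and the highest in Con9. The mean log2 ratio was 6.60 ± 0.43 (SD, n = 3) in Con and 6.43 ± 0.20 in CR mice at day 25, and 5.53 ± 0.63 and 5.74 ± 0.14 at day 30. Adjusted for day, CR and Con differed by 0.020 (exact permutation test within days, 2-sided, p = 0.915, where 0.005 is the smallest p possible). Mat2b, the regulatory subunit gene, had a log2 fold change of -0.11 (adjusted p = 0.233) over both days. Mat1a lies on the plus strand of chromosome 14 (mm10, 41105033 to 41124428, 10 exons) and Mat2a on the minus strand of chromosome 6 (72432799 to 72439558, 9 exons), where it overlaps Particl on the other strand.

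Gnmt and Shmt1 gave estimates near 0. Gnmt encodes glycine N-methyltransferase, an abundant liver enzyme that uses up surplus S-adenosylmethionine on glycine. Its FPKM ranged from 1049.5 to 1946 in Con mice (median 1613) and from 1289.6 to 1823 in CR mice (median 1502). The log2 fold change was -0.015 at day 25, -0.031 at day 30 and -0.023 over both days (95% interval -0.27 to 0.23, adjusted p = 0.903). Shmt1 encodes the cytosolic serine hydroxymethyltransferase, which moves a carbon from serine to folate. Its FPKM ranged from 52.3 to 83.4 in Con mice (median 74.3) and from 57.3 to 85.5 in CR mice (median 72.2), and the log2 fold change over both days was 0.011 (95% interval -0.21 to 0.23, adjusted p = 0.949). The intervals leave room for changes of up to about these bounds in either direction, and the sign of both estimates turned under other scalings. Shmt2, the mitochondrial counterpart, had 0.11 (adjusted p = 0.261) over both days. Gnmt lies on chromosome 17 (mm10, 46725664 to 46729165, 6 exons) and Shmt1 on chromosome 11 (60788897 to 60811265, 12 exons), both on the minus strand.

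The next question was whether the genes differed between day 25 and day 30. None of the 9 passed in CR mice, where 0.321% of all genes did, or in Con mice, where 0% did. None showed a CR effect that passed as different between the days, against 0.00944% of all genes. At an unadjusted p under 0.05, 1 of the 9 genes differed between days in CR mice (8.66% of all genes), 1 in Con mice (7.22%) and 0 in its CR effect (3.46%). Under voom on recovered reads, the other tool run, no member passed an adjusted p of 0.1 in these comparisons. In Con mice it was Mat1a, with a log2 difference between days of -0.82 (adjusted p = 0.453), or -0.54 without Con11 (adjusted p = 0.732), and in CR mice Mat2a, with 0.30 (adjusted p = 0.479). Between day 25 and day 30, 8 of the 9 estimates were negative in Con mice, 6 of 9 without Con11, and 6 of 9 in CR mice.

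**Figure D3:**
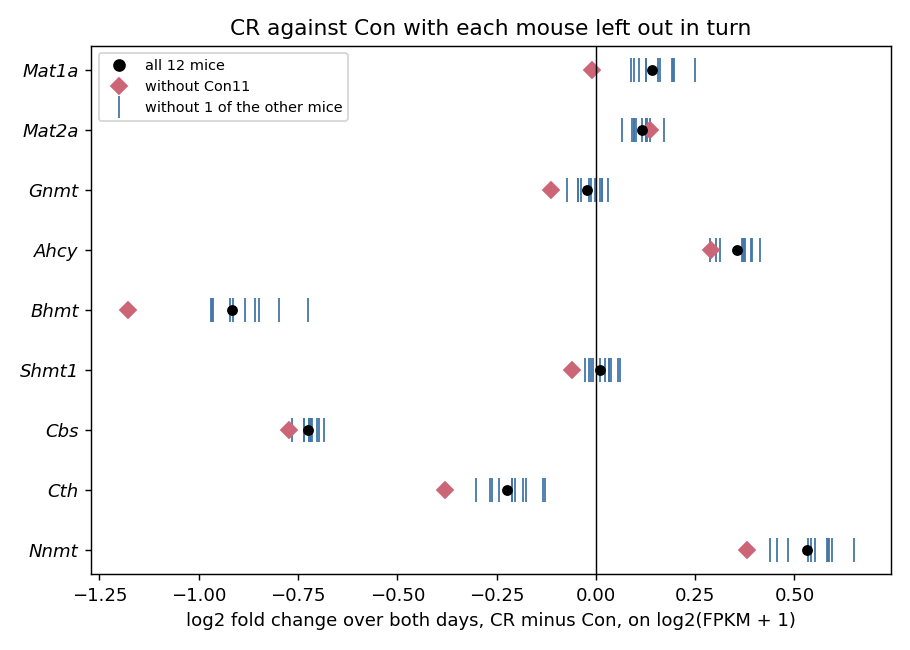
Log2 fold change of CR against Con over both days on log2(FPKM + 1) (horizontal axis) for each gene (vertical axis) with all 12 mice (black) and with each mouse left out in turn (blue bars, or a red diamond for Con11). The diamond lies at the left end for Bhmt at -1.18, for Cth at -0.38 and for Nnmt at 0.38. It also lies there for Mat1a, Gnmt, Shmt1 and Cbs, and the values of Cbs stay between -0.77 and -0.68.

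The other genes of these pathways were described from 9 lists with 105 genes, 93 of which were tested. The lists were chosen with earlier results of these data known, so an excess over the share of all genes is no independent support. Most genes named from them below are among the 10 largest changes that passed at day 25 or at day 30. A lack of overlap between their groups is therefore no independent support. At day 25, 23 of the 93 passed (24.7%, against 14.9% of all genes), 12 higher and 11 lower, and the count was 10 without Con7, 11 without CR7 and 13 without CR9. At day 30, 33 passed (35.5%, against 24.7%), 16 higher and 17 lower, and over both days 41 passed (44.1%, against 40.6%). At day 30, 25 passed without Con11 and 22 without CR10, the lowest count with a mouse left out. The median log2 fold change of the 93 genes was 0.023 at day 25 and -0.00025 at day 30, beside -0.039 and -0.068 over all genes. None of the 93 passed between the days in either diet or for a difference of the CR effect between days. The counts of single lists below are small and stand beside the same 14.9% of all genes at day 25 and 24.7% at day 30.

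**Figure D4:**
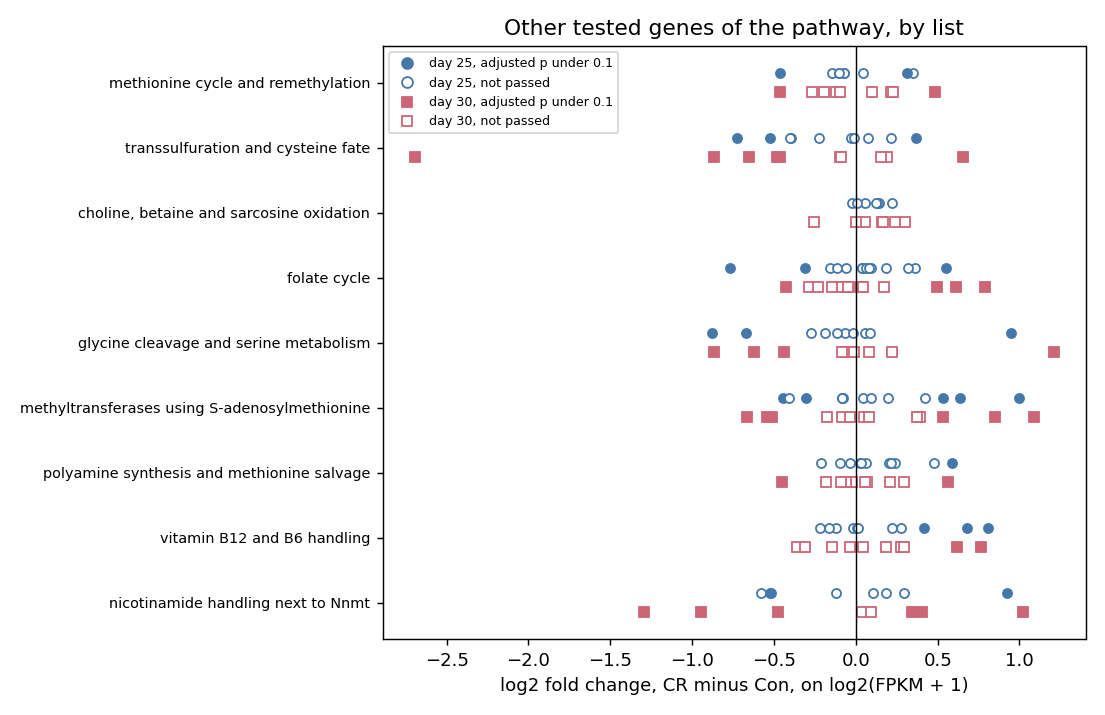
Log2 fold change of CR against Con on log2(FPKM + 1) (horizontal axis) for the 93 other tested genes, in rows by list, at day 25 (blue circles) and day 30 (red squares). Filled symbols passed an adjusted p of 0.1. The symbol farthest to the left is Csad at day 30, at -2.70.

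In the list of transsulfuration and cysteine fate, 1 of 10 tested genes rose and 2 fell at day 25, and 1 rose and 5 fell at day 30. Csad, which decarboxylates cysteine sulfinate on the way to taurine, was at an FPKM of 191, 167 and 109 in Con mice and 106, 146 and 98.4 in CR mice at day 25. At day 30, it was at 211, 156 and 100.1 in Con mice and at 8.09, 61.0 and 20.9 in CR mice. The groups overlapped at day 25 and were apart at day 30, where 24.3% of tested genes had all CR mice lower. The log2 fold changes were -0.40 (adjusted p = 0.692) and -2.70 (SE 0.52, adjusted p = 0.00515). Gclc, the catalytic subunit of the enzyme that starts glutathione synthesis, fell at day 30 by 0.87 on the log2 scale (adjusted p = 0.0137). Ethe1, a mitochondrial sulfur dioxygenase, fell at both days (-0.72 and -0.65, adjusted p = 0.0364 and 0.0381). The gene that rose at both days was Sqrdl, sulfide quinone oxidoreductase (0.37 and 0.66, adjusted p = 0.0947 and 0.00553), which is named after its values were seen.

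In the list of glycine cleavage and serine metabolism, with 10 tested genes, 1 rose and 2 fell at day 25, and 1 rose and 3 fell at day 30. The 2 that fell at both days, Amt and Gldc, were subunits of the glycine cleavage system, which breaks glycine down and passes a carbon to folate. Its subunits Gcsh (0.054 and 0.080, adjusted p = 0.846 and 0.712) and Dld (-0.065 and -0.021, adjusted p = 0.780 and 0.917) did not pass. Gcsh and Dld are named after their values were seen. Amt, the aminomethyltransferase, was at 25.8 ± 2.44 (mean FPKM ± SD, n = 3) in Con and 13.6 ± 1.68 in CR mice at day 25, and at 25.5 ± 3.83 and 13.5 ± 0.970 at day 30. All 6 CR mice lay below all 6 Con mice, as in 8.7% of tested genes. The log2 fold changes were -0.88 (adjusted p = 0.00200) and -0.87 (adjusted p = 0.0011). Gldc, the decarboxylase, fell by 0.67 (adjusted p = 0.0741) and by 0.62 (adjusted p = 0.0687) on the log2 scale. Sds, serine dehydratase, which feeds serine to pyruvate, rose from 204 ± 54.2 to 384 ± 32.7 at day 25 and from 145 ± 56.5 to 326 ± 84.0 at day 30 (log2 fold changes 0.95 and 1.21, adjusted p = 0.0492 and 0.0112).

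Among 13 tested methyltransferases that use S-adenosylmethionine, 3 rose and 2 fell at day 25, and 3 rose and 3 fell at day 30. Pemt, which makes phosphatidylcholine from phosphatidylethanolamine, was at 212 ± 9.76 in Con and 309 ± 37.5 in CR mice at day 25, and at 199 ± 30.8 and 360.4 ± 56.1 at day 30. Every CR mouse lay above every Con mouse, as in 3.82% of tested genes. The log2 fold changes were 0.54 (adjusted p = 0.0377) and 0.85 (adjusted p = 0.00248). Inmt, an indolethylamine N-methyltransferase, was at 277 ± 78.6 and 556 ± 152 at day 25 and at 367 ± 58.7 and 806 ± 283 at day 30 (log2 fold changes 1.00 and 1.09, adjusted p = 0.0398 and 0.0188). Gamt, the last step of creatine synthesis, rose at day 25 (0.64, adjusted p = 0.0964) and had 0.39 (adjusted p = 0.253) at day 30.

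In the list of nicotinamide handling around Nnmt, with 8 tested genes, 1 rose and 2 fell at day 25, and 3 rose and 3 fell at day 30. Nampt, the rate-limiting enzyme of the salvage of nicotinamide to NAD, had an FPKM of 16.2, 17.9 and 16.9 in Con and 34.7, 31.6 and 33.3 in CR mice at day 25. On day 30, Nampt had 13.5, 22.4 and 17.4 in Con and 30.6, 36.9 and 42.4 in CR mice. The CR mice all lay above the Con mice, as in 3.82% of tested genes. The log2 fold changes were 0.93 (adjusted p = 0.00459) and 1.02 (adjusted p = 0.0015). Aox1 and Aox3, aldehyde oxidases that act on methylated nicotinamide among other substrates, had log2 fold changes of -0.53 (adjusted p = 0.0412) and -0.58 (adjusted p = 0.191) at day 25, and of -1.29 (adjusted p = 0.000198) and -0.94 (adjusted p = 0.0283) at day 30.

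The vitamin B12 and B6 list, with 11 tested genes, had 3 that rose and 0 that fell at each day. Pdxk, pyridoxal kinase, which makes the active form of vitamin B6, was at 8.51 to 11.4 in Con and 15.0 to 19.5 in CR mice at day 25 and at 11.6 to 13.1 and 17.5 to 20.8 at day 30 (log2 fold changes 0.81 and 0.62, adjusted p = 0.00294 and 0.00623). Abcd4, a lysosomal exporter of vitamin B12, had 0.68 and 0.76 (adjusted p = 0.0725 and 0.0328). In the folate list, with 14 tested genes, 1 rose and 2 fell at day 25 and 3 rose and 1 fell at day 30. Slc25a32, the mitochondrial folate carrier, rose at both days (0.55 and 0.79, adjusted p = 0.0354 and 0.00403). Folr2, a folate receptor known from macrophages, fell at day 25 by 0.77 on the log2 scale (adjusted p = 0.0514). Its FPKM was low, at 2.13, 4.93 and 2.44 in Con and 1.06, 1.78 and 1.255 in CR mice. The least covered value of Folr2 rested on 24 reads, for which counting error alone is 20.4%. At day 25, 4 of 7 Kupffer cell and macrophage genes fell too, and a link with Folr2 was not tested.

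The remaining lists stand beside 14.9% of all genes that passed at day 25 and 24.7% at day 30. Of 9 genes of the methionine cycle and remethylation, 1 rose and 1 fell at each day. Of 11 genes of polyamine synthesis and methionine salvage, 1 rose and 0 fell at day 25, and 1 rose and 1 fell at day 30. Of 7 genes in the list of choline, betaine and sarcosine oxidation, only some of which act in supplying betaine to Bhmt, none passed at either day.

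Some markers of other cell types, of zones of the lobule and of the clock differed between the diets. Over all tested genes, 14.9% passed at day 25 and 24.7% at day 30, and several of the counts below are near these shares. Of 6 endothelial genes, 1 rose at day 25 and 2 at day 30, and of 5 erythroid genes tested, 1 fell at each day. Of 7 Kupffer cell and macrophage genes, 4 (Clec4f, Vsig4, Cd5l and Csf1r) fell at day 25 and 0 fell at day 30, where Marco rose. Their summed FPKM was 39.9 to 68.1 in Con and 25.6 to 34.0 in CR mice at day 25, and 36.1 to 53.1 and 35.1 to 47.8 at day 30. Of 6 stellate and fibroblast genes tested, 1 rose at day 25 and 4 at day 30, with sums over the 7 listed genes of 95.7 to 107 in Con and 115 to 137 in CR mice at day 25 and of 77.3 to 98.4 and 122 to 139 at day 30. Of 10 pericentral hepatocyte genes, 3 rose and 2 fell at day 25 and 0 rose and 2 fell at day 30. Of 8 periportal genes, which include Sds, 1 rose and 1 fell at day 25 and 3 rose and 0 fell at day 30. Of 14 clock genes, 3 rose and 2 fell at day 25, and 4 rose and 2 fell at day 30. Those that fell at both days were Clock and Nr1d1, a clock repressor, which was at -2.37 and -2.28 (adjusted p = 5.1e-06 and 4.0e-06). Other repressors rose at both days, Cry1 at 1.47 and 1.63 (adjusted p = 0.000386 and 7.6e-05) and Per2 at 1.35 and 0.97 (adjusted p = 0.000386 and 0.00132). Nr1d2 did not pass (0.12 and -0.032). The 6 hepatocyte genes had summed FPKM of 43214 to 50111 in Con and 48792 to 51879 in CR mice at day 25. At day 30, the sums were 36276 to 45004 and 52278 to 62570.4. Singly, 0 of these genes passed at day 25. At day 30, Alb (0.64, adjusted p = 0.00791) and Cps1 (0.48, adjusted p = 0.0705) rose, and Apob fell (-0.44, adjusted p = 0.0943). The part of these differences in the results for the 9 enzymes was not tested.

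The genes whose pattern was most like that of each member called over both days were found by Pearson's correlation of log2(FPKM + 1) over the 12 libraries, which share the split by diet. For Cbs they included Srxn1 (0.976) and Ppm1f (0.964). For Bhmt they were Iqcc (0.906), Abat (0.904) and Pspc1 (0.903). Ahcy was most like Cdip1 (0.963), Slc29a1 (0.953) and Rbm10 (0.944), and Nnmt most like Mt1 (0.943), Proser2 (0.940) and Lncbate1 (0.935). After the mean of each group was subtracted, Bhmt2 was the second most like Bhmt (0.964), against 0.544 before, and Slc29a1 was the most like Ahcy (0.966).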

How the data were processed

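Liver RNA of 12 mice was sequenced in a single lane with paired ends. Per the submitters' processing notes and the methods, reads were processed with CASAVA 1.8.2 and FastQC, mapped to mm10 with BWA, and tested with DESeq2 by the authors. Per the file headers, the authors counted exon reads with HOMER, kept 1 RefSeq transcript of each gene, and deposited FPKM that were not scaled between libraries. Whether counting used strand is not given in the sources used here, so reads of overlapping antisense genes cannot be told apart.

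FPKM are not counts, so log2(FPKM + 1) was tested with limma 3.58.1 in R 4.3.3, with moderation and a trend on expression, for 10593 of 24537 genes (minimum FPKM 1, reached in 3 or more libraries). The pseudocount of 1 makes changes of low genes smaller. A model of the 4 groups gave the contrasts at each day, between days and their difference, and a model with day as a covariate gave both days together. Tests are 2-sided, and Benjamini-Hochberg adjusted p-values run over all genes tested, with a threshold of 0.1. An exact permutation test of 1 gene in 3 against 3 mice cannot go below 0.1. Nothing in the sources used here ties mice of a group to litters or cages, and p-values measure the spread between these mice.

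Low FPKM values lie on multiples of what 1 read is worth, which gave whole reads and depths of 15748718 to 23345562 reads (100% of low values were whole within 0.1). The reads were used for depth and for the voom alternative. Counting error is the only error they measure.

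Groups come from the sample labels. The 3 Con samples of day 30 share 1 description, so their columns (Con10, Con11 and Con12) were assigned to the group and their numbers come from the table. The replicate block joins same-numbered Con and CR mice, which are different animals. Same-numbered mice deviated together at day 25 (correlations 0.106 to 0.368), by which the numbers were taken to pair them. At day 30, the correlations were 0.0456 to 0.181 and not all above 0.1.

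The members and gene lists were chosen with earlier results of these data known. Named genes are the 9 members, Bhmt2, Ahcyl1, Ahcyl2, Mat2b and Shmt2, the 10 largest changes at each day among pathway genes that passed, and for each member that passed over both days the 3 genes with the highest Pearson correlation. An item under this rule is not reported here. Promoters are from RefSeq (GRCm38.p6), which held 6 of the 9 members (not Mat1a, Cth and Nnmt). Gene positions are those of the deposited table (mm10), exon numbers and overlaps are from GENCODE, and similar transcripts were found with BLAST 2.17.0. Other tools were matplotlib 3.10.9, numpy 2.4.6, pandas 2.3.3 and Python 3.11.15. The fit was first run on simulated log2 values with known changes. Alternatives covered the pseudocount, filter, scaling (median ratio, TPM and quantile), trend, groups in the model, thresholds, replicate block, voom and each mouse left out.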

Additional observations from a re-analysis of the deposited data

How the results depend on the processing

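With 3 mice per group, and FPKM with no scaling between libraries, small changes cannot be resolved, and whether Ahcy, Bhmt and Mat2a share reads with near-identical copies was not tested. The median log2 fold change of all genes shifted from that of the main fit by less than 0.1 under each scaling tried. At day 30, it was -0.068 in the main fit and -0.102 under TPM. The cause of each move below was not tested unless fewer mice or genes entered the fit.

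At day 25, members that passed numbered 2 with only the groups compared in the model (Bhmt and Cbs), 3 with the replicate block (Cbs, Cth and Nnmt), and 0 when a 2-fold change was also required. At day 30, they numbered 2 after median-ratio scaling, 2 with the replicate block, whose numbers were not taken to pair mice at that day (Ahcy and Cbs, with an adjusted p of 0.0596 for Ahcy), and 0 with the 2-fold rule. Over both days the 2-fold rule left 0. The block changed no other call of a member. Of the pathway genes, the 2-fold rule left 0 at day 25 and 5 at day 30. With each mouse left out, 1 to 4 members passed at day 25, 1 to 2 at day 30 with 10 to 23 pathway genes at day 25 (at day 30, between 22 and 35). The log2 Mat1a to Mat2a ratio difference between diets was -0.15 to 0.16 with a mouse left out, and with sign flips within same-numbered pairs its p was 0.8125 (exact permutation test).

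Estimates near 0 turned sign under other scalings. Median-ratio scaling gave Gnmt 0.048 at day 25, 0.052 at day 30, 0.0042 for the change between days and 0.050 over both days, and Shmt1 0.077 at day 30. Quantile normalization gave Mat1a 0.042, Gnmt 0.085 and Shmt1 -0.031 at day 25, Cth -0.018 at day 30, and Gnmt 0.036 and Shmt1 -0.034 over both days. TPM gave Shmt1 -0.015 over both days.

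With a mouse left out, the ranges that crossed 0 were as follows. At day 25, Mat1a ran from -0.25 to 0.11, Gnmt from -0.13 to 0.072 and Shmt1 from -0.059 to 0.078. At day 30, Cth ran from -0.20 to 0.24, Gnmt from -0.24 to 0.089 and Shmt1 from -0.17 to 0.10. Over both days, Mat1a ran from -0.0085 to 0.25, Gnmt from -0.11 to 0.031 and Shmt1 from -0.061 to 0.061. For the change of the CR effect between days, Ahcy ran from -0.066 to 0.23, Bhmt from -0.50 to 0.52, Gnmt from -0.22 to 0.10, Mat2a from -0.058 to 0.12, Nnmt from -0.50 to 0.11 and Shmt1 from -0.20 to 0.078. Between days, Bhmt ran from -1.02 to 0.0022 and Cth from -0.36 to 0.077 in Con mice, and Cbs from -0.020 to 0.10 in CR mice. None of these passed the threshold.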
